A study of Mus musculus with 8 samples.

Results

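The 4 genes described here belong to the DNA methylation machinery and were followed in cultured mouse neural cells exposed to AzaC, to TSA or to both. They are Uhrf1 and Dnmt1, which maintain DNA methylation, Dnmt3a, which sets it up, and Mbd3, a protein of the methyl-CpG-binding domain family. They were measured by every probe set (a group of short probes that together report 1 transcript) that the array annotation assigns to 1 of the 4 genes. This gave 6 probe sets, with 2 for Dnmt1, 2 for Dnmt3a and 1 each for Uhrf1 and Mbd3, among 8251 genes named on the array. The cells were neurospheres, floating cultures of neural stem and progenitor cells, grown from the forebrains of single embryonic day 14.5 mouse embryos. All cultures, the untreated ones included, carried a bcl2 transgene. Bcl2 is a protein that protects cells from apoptosis, and the promoter that drives the transgene is not given in the sources used here. Cells dissociated to single-cell suspension were left untreated, or received 500 nM AzaC (5-aza-2'-deoxycytidine), 150 nM TSA (trichostatin A) or 500 nM AzaC together with 150 nM TSA (AzaC/TSA), each for 2 days. Total RNA of each of these 4 groups was measured on 2 arrays, 1 from each of 2 independent experiments.

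DNA methylation in mammals is a mark on the cytosine of CG dinucleotides that is copied after each round of DNA replication. Uhrf1 binds the hemimethylated DNA that leaves the replication fork and recruits Dnmt1, the maintenance methyltransferase, which methylates the new strand. Dnmt3a methylates DNA that carried no mark before, and in the brain it remains expressed in neural precursors and neurons. Mbd3 belongs to the methyl-CpG-binding domain family, but its role is known mainly as a core subunit of the NuRD complex, which joins a nucleosome remodeller to the histone deacetylases Hdac1 and Hdac2. AzaC is a deoxycytidine analogue that is built into DNA and traps the methyltransferases there, and TSA inhibits histone deacetylases. Both agents thus act on proteins that these genes encode or that work in complexes with them, while the arrays measured RNA only.

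The sequences before the start sites of Uhrf1, Dnmt1 and Mbd3 are shown because the RNA of these 3 genes was lower on every TSA-exposed array than on every other array, as described below. RefSeq (build GRCm38.p6) annotated 2 starts for Uhrf1, 3 for Dnmt1, 3 for Dnmt3a and 1 for Mbd3. For each gene the start with the most CG dinucleotides in the 250 bases before it was taken. Each sequence runs 5' to 3' on the strand of the gene, and capitals mark matches on either strand to GGGCGG (the GC box) or to 1 of 4 E2F-type sequences (TTTCCCGC, TTTGGCGC, TTTCGCGC and TTTGCCGC). The windows lie at chr17:56304063-56304312 (plus strand) for Uhrf1, chr9:20952624-20952873 (minus strand) for Dnmt1 and chr10:80399532-80399781 (minus strand) for Mbd3. For Uhrf1 and Dnmt1 another annotated start lies further upstream, so these windows are inside the annotated genes and may be transcribed from that start.
Uhrf1: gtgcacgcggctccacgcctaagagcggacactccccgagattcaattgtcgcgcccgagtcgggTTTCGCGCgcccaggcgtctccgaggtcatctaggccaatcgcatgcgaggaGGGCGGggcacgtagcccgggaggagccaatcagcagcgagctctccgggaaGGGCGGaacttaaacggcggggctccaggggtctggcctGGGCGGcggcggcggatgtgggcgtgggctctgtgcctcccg
Dnmt1: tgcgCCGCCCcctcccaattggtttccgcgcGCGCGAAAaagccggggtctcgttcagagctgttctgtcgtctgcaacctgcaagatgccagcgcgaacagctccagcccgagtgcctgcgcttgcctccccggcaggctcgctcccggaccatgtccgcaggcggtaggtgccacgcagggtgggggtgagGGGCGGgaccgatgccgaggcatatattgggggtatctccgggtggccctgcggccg
Mbd3: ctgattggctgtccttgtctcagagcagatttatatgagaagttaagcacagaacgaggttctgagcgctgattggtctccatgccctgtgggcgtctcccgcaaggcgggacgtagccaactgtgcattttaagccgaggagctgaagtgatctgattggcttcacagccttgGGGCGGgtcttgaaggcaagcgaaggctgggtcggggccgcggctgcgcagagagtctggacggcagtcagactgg

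The windows of Uhrf1 and Dnmt1 each held 1 match to the same E2F-type sequence, TTTCGCGC. In Uhrf1 it lay on the strand of the gene with its first base 185 bases before the start. In Dnmt1 it lay on the other strand, 219 bases before the start. That sequence was found in 0.256% of the 32851 windows of 250 bases before annotated mouse starts, and any of the 4 E2F-type sequences in 1.86%. The windows before the other annotated starts of Uhrf1 and Dnmt1 held 0 matches to the 4 sequences. The chosen windows of Mbd3 and Dnmt3a also held 0 matches to them, which says only that these letters were not in these windows. The GC box was matched 3 times in Uhrf1, 2 times in Dnmt1, 1 time in Mbd3 and 4 times in Dnmt3a, against at least 1 match in 32.7% of all windows. CCAAT was matched 2 times in Uhrf1, 3 times each in Dnmt1 and Mbd3 and 0 times in Dnmt3a (33.8% of all windows), and 2 of the Dnmt1 matches overlap each other on opposite strands. TATAAA was matched 1 time, in Mbd3 (12.4%). The windows held 30 CG dinucleotides in Uhrf1, 26 in Dnmt1, 14 in Mbd3 and 40 in Dnmt3a, where the median window had 6. For Uhrf1, Dnmt1 and Dnmt3a the window was chosen by this count, which favours values above that median. Windows not chosen held 10 in Uhrf1, 7 and 2 in Dnmt1 and 38 and 15 in Dnmt3a. The same choice favours motifs that contain CG, so their shares over all windows are not a like comparison. None of these matches was measured as a binding site here.

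**Figure D1:**
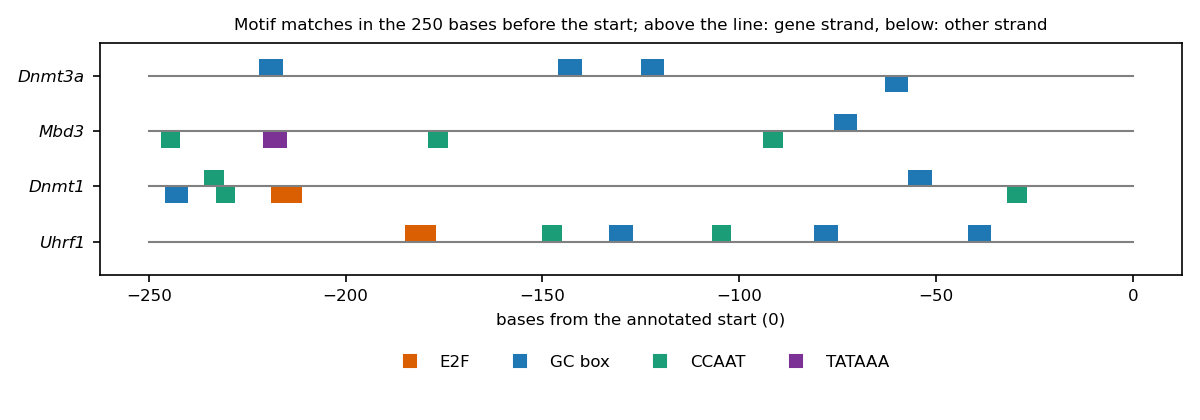
Positions of motif matches in the 250 bases before the chosen start of each gene (x axis, bases from the start), with matches on the strand of the gene above the line and on the other strand below it. The E2F-type match appears in Uhrf1 and Dnmt1, at 185 and 219 bases before the start, and the GC box in all 4 genes.

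The deposited signals are linear and share 1 trimmed mean over all arrays, with array medians between 59.3 and 72.8. Signals under a floor of 20.01 were raised to it and taken to log2, and 7987 probe sets that reached 50.03 on at least 2 of the 8 arrays were tested with limma. With 2 arrays a group, a log2 difference had a typical (median) standard error of 0.41, which is a 95% half-width of 0.93. Of 10 neural stem and progenitor markers named on the array, 6 reached the filter signal on both untreated arrays (Nes, Sox2, Fabp7, Hes1, Notch1 and Pax6). Of 8 tested, 0 rose and 1, Fabp7, fell with TSA over both AzaC states, where 6.95% of all tested probe sets rose and 7.54% fell. The summed signal of the 10 markers was 16208 and 17784 on the untreated arrays, 15191 to 17484 with AzaC, 6422 to 8565 with TSA and 10042 to 14201 with AzaC/TSA. Fabp7 carried most of that difference: without it the other 9 summed to 6898 and 6864 untreated, 6911 and 7360 with AzaC, 6068 and 5359 with TSA and 8701 and 7006 with AzaC/TSA. Of 9 tested neuron markers 5 rose (Mapt, Snap25, Syp, Stmn2 and Reln) and 1 fell (Tubb3) with TSA over both AzaC states, and their summed signal (11 markers) was 2661 and 2704 untreated, 2580 to 3347 with AzaC, 2918 to 3172 with TSA and 2690 to 3691 with AzaC/TSA. Of 9 microglia and macrophage markers, Aif1, Itgam and Ptprc stayed under the floor on all 8 arrays, while of 3 tested 1 rose, Cd68, a lysosomal protein, from 30.0 to 53.0 without TSA to 167 to 474 with it, and the summed signal of the 9 was 215 to 425 without TSA and 324 to 604 with it. Of 5 tested astrocyte markers 1 fell (S100b), of 4 tested fibroblast markers 1 rose (Dcn), and 0 of 4 tested oligodendrocyte lineage markers passed. Snap25, Syp, Reln and Dcn had arrays without TSA under the floor of 20.01, so their changes depend on it. The marker counts of every list stand against the same shares, 6.95% of all tested probe sets that rose and 7.54% that fell. The part of these marker shifts in the results below was not tested. Because whole cultures were measured, fewer cells of a type and less RNA per cell cannot be told apart.

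TSA was accompanied by lower RNA for 3 of the 4 genes. With the 4 TSA-exposed arrays set against the 4 others (the TSA effect averaged over cells without and with AzaC), Uhrf1 was 5.81-fold lower, Mbd3 2.66-fold lower and Dnmt1 2.56-fold lower, and all 3 fell at an adjusted p under 0.05 by limma. Dnmt3a did not pass (log2 change -0.15, SE 0.49, adjusted p = 0.874). In this comparison 14.5% of all tested probe sets passed, with 7.54% lower and 6.95% higher, and 23.9% passed with the experiment as a block. Signals of Uhrf1, Dnmt1 and Mbd3 did not overlap between the 4 TSA-exposed and the 4 other arrays, with the TSA-exposed arrays lower, which held for 12.6% of all tested probe sets. With AzaC alone none of the 4 genes passed the test.

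**Figure D2:**
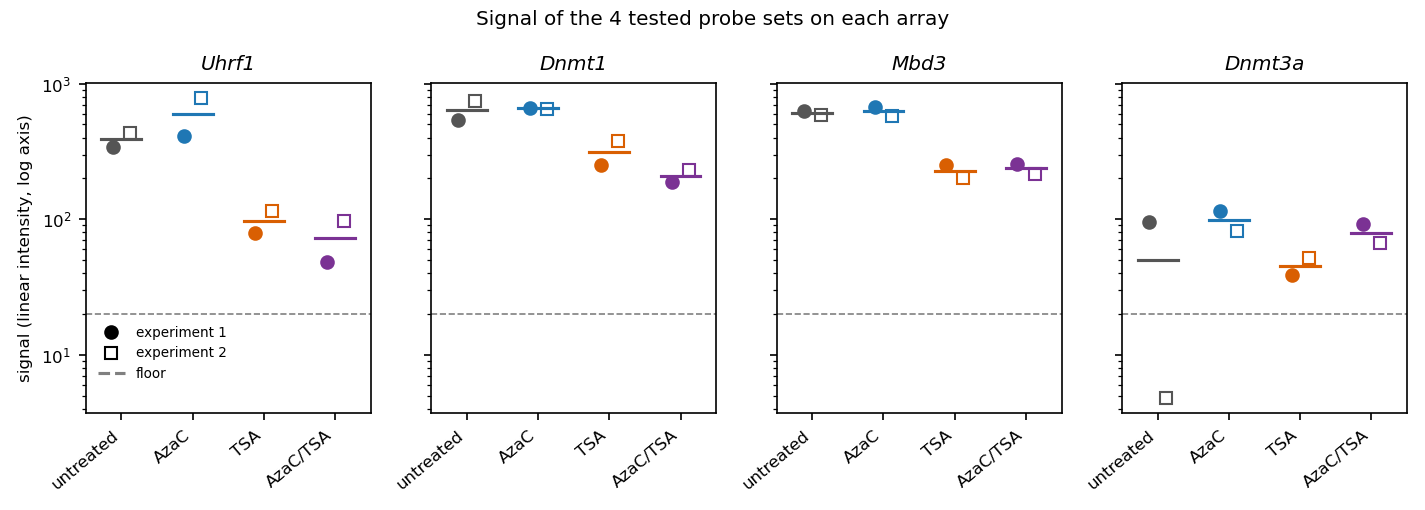
Signal (y axis, linear intensity on a log axis) of the brightest probe set of each gene on every array, by group (x axis), with circles for experiment 1, squares for experiment 2, bars at the arithmetic group mean of 2 arrays and a dashed line at the floor of 20.01. Uhrf1, Dnmt1 and Mbd3 are lower on every TSA and AzaC/TSA array than on every untreated and AzaC array, and untreated 2 lies under the floor for Dnmt3a.

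Uhrf1 (probe set 99564_at) showed the largest fall of the 4 genes. Its signal was 344 and 432 on untreated arrays of experiments 1 and 2, 413 and 789 with AzaC, 78.8 and 115 with TSA, and 48.5 and 96.4 with AzaC/TSA. Both TSA groups were low in both experiments, and the AzaC array of experiment 2 was the highest of all 8. The group means were 601 ± 266 with AzaC, 388 ± 62.3 untreated, 96.8 ± 25.5 with TSA and 72.45 ± 33.9 with AzaC/TSA (SD, n = 2 each). In this order the step from untreated to TSA passed the test, while the steps from AzaC to untreated and from TSA to AzaC/TSA did not.

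With TSA alone Uhrf1 was 4.05-fold lower than untreated (log2 change -2.02, SE 0.45, limma adjusted p = 0.0376), by 4.36-fold in experiment 1 and 3.76-fold in experiment 2. Here 2.93% of all tested probe sets fell. With AzaC/TSA it was 5.63-fold lower than untreated (-2.49, SE 0.45, limma adjusted p = 0.0222), where 1.83% of all probe sets fell. Against AzaC alone, adding TSA was accompanied by a fall of 8.35-fold (-3.06, SE 0.45, limma adjusted p = 0.00997), 8.51-fold and 8.18-fold in the experiments, where 1.68% fell. Pooled over AzaC the log2 change was -2.54 (95% interval -3.26 to -1.82, limma adjusted p = 0.00161), and this call held in all 17 alternatives. The call of TSA against untreated was lost without untreated 1 (adjusted p = 0.117), untreated 2 (0.231), TSA 1 (0.194) or TSA 2 (0.129), without the filter and without the intensity trend. That of AzaC/TSA against untreated was lost without untreated 1 (0.0813), untreated 2 (0.193) or AzaC/TSA 1 (0.114), and that against AzaC without AzaC 2 (0.0834) or AzaC/TSA 1 (0.0657).

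Dnmt1 was lower on all 4 TSA-exposed arrays and lowest where AzaC was present as well. Its main probe set (101445_at) gave 536 and 749.9 untreated, 664 and 648.5 with AzaC, 252 and 376 with TSA, and 188 and 229 with AzaC/TSA. The untreated and AzaC arrays overlapped, and both AzaC/TSA arrays lay below both TSA arrays, which held for 14.8% of all tested probe sets. The group means were 656 ± 10.9 with AzaC, 643 ± 151 untreated, 314 ± 88.2 with TSA and 208 ± 29.1 with AzaC/TSA (SD, n = 2 each). None of the 3 steps between neighbours in this order passed the test, while AzaC/TSA passed against untreated and against AzaC.

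Against untreated cells, TSA alone left Dnmt1 2.06-fold lower (log2 change -1.04, 95% interval -1.73 to -0.36), which did not pass (limma adjusted p = 0.0897), and with the experiment as a block it did (adjusted p = 0.022, SE 0.24, where 6.56% of probe sets fell). The ratio was close in the experiments, 2.13-fold and 1.99-fold. With AzaC/TSA Dnmt1 was 3.06-fold lower than untreated (-1.61, SE 0.30, limma adjusted p = 0.026) and 3.17-fold lower than with AzaC alone (-1.66, SE 0.30, limma adjusted p = 0.0267). Averaged over AzaC, the TSA change was -1.35 (95% interval -1.84 to -0.87, limma adjusted p = 0.00457), which held in all 17 alternatives. AzaC/TSA against TSA gave -0.57 (95% interval -1.26 to 0.12, limma adjusted p = 1.0), and its size of 1.34-fold in experiment 1 and 1.65-fold in experiment 2 was lower with AzaC/TSA in both. Both calls that compare 2 groups were lost without AzaC/TSA 1 or AzaC/TSA 2, and also without untreated 1 or 2 for the first and AzaC 1 or 2 for the second, with adjusted p from 0.0597 to 0.2201.

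A second probe set of Dnmt1 (161601_i_at) was dim and was not tested, since it reached the filter signal on 0 arrays. Its signals were 17.5 and 32.6 untreated, 22.6 and 13.8 with AzaC, 42.6 and 11.7 with TSA, and 22.0 and 24.1 with AzaC/TSA. The groups overlapped throughout and 3 of the 8 values lay under the floor, so it gives no order for the groups.

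Mbd3 fell with TSA to a like level whether AzaC was present or not. Its probe set (101385_at) gave 631 and 583.5 untreated, 669.7 and 579.7 with AzaC, 252 and 202.5 with TSA, and 257 and 217 with AzaC/TSA. The spread between experiments was small beside the gap between the 4 high and the 4 low arrays. The group means were 625 ± 63.6 with AzaC, 607 ± 33.7 untreated, 237 ± 28.1 with AzaC/TSA and 227 ± 35.2 with TSA (SD, n = 2 each). The step from untreated to AzaC/TSA passed, and the other steps between neighbours did not.

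Mbd3 was 2.69-fold lower with TSA than untreated (log2 change -1.42, SE 0.26, limma adjusted p = 0.021), 2.57-fold lower with AzaC/TSA than untreated (-1.36, SE 0.26, limma adjusted p = 0.0284) and 2.64-fold lower with AzaC/TSA than with AzaC (-1.40, SE 0.26, limma adjusted p = 0.0292). In experiments 1 and 2 the TSA ratio was 2.50-fold and 2.88-fold. Averaged over AzaC the change was -1.41 (95% interval -1.83 to -0.99, limma adjusted p = 0.00213), in all 17 alternatives. AzaC/TSA against TSA gave 0.06, with a 95% interval of -0.53 to 0.66. Each of the 3 calls between groups was lost without any of the 4 arrays compared, and the call against AzaC also without untreated 1 or 2, with adjusted p from 0.0566 to 0.1804.

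Dnmt3a gave no call in any of the 8 comparisons, and 1 of its 8 values lay under the floor. The brighter probe set (100479_at) gave 95.8 and 4.8 untreated, 116 and 82.5 with AzaC, 38.5 and 51.5 with TSA, and 92.7 and 66.6 with AzaC/TSA. The untreated arrays differed more from each other than any groups did, with untreated 2 under the floor, and both TSA arrays lay below both AzaC and both AzaC/TSA arrays, orders that held for 27.8% and 12.5% of all tested probe sets. The group means were 99.25 ± 23.7 with AzaC, 79.65 ± 18.5 with AzaC/TSA, 50.3 ± 64.35 untreated and 45.0 ± 9.19 with TSA (SD, n = 2 each), and no step between neighbours passed. TSA against untreated went in opposite directions in the experiments, with log2 ratios of -1.32 and 1.36, the second against an untreated value at the floor. AzaC averaged over TSA gave 0.99 (95% interval -0.11 to 2.09, unadjusted p = 0.0724 by limma, adjusted p = 0.998), and without untreated 2 it was 0.42. The second probe set (161170_r_at) reached the filter on 0 arrays and was under the floor on 7 of 8, from 0.6 to 34.4, so it was not tested.

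**Figure D3:**
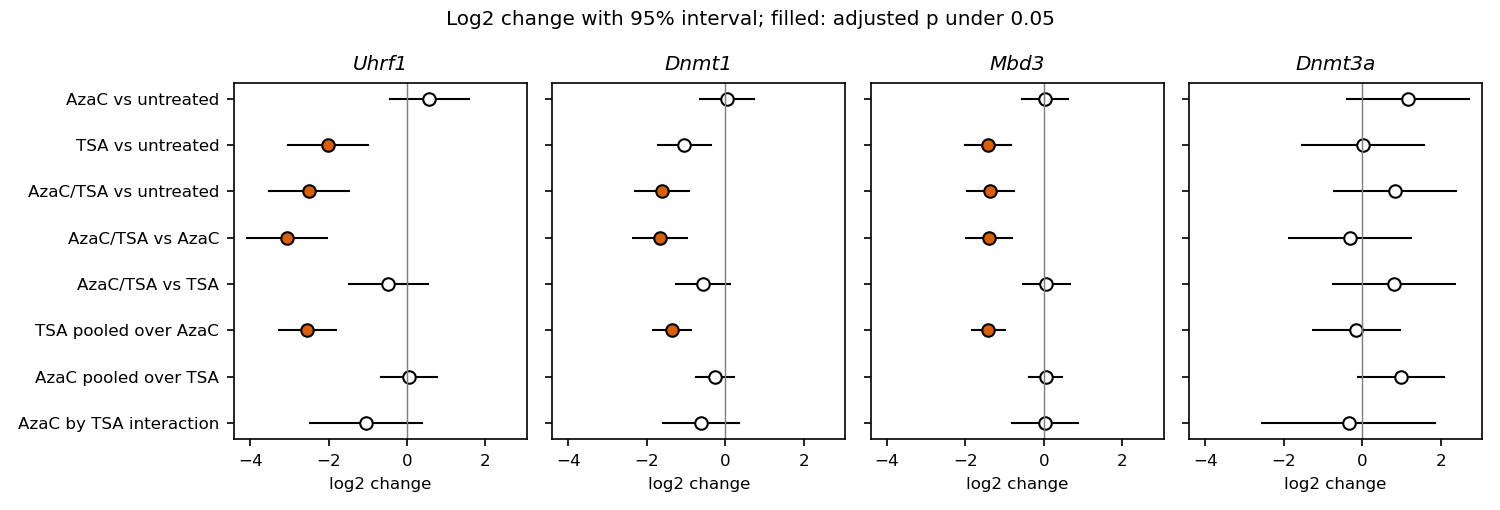
Log2 change (x axis) of each gene in the 8 comparisons (y axis) from the limma fit over 8 arrays, with 95% intervals and filled points at an adjusted p under 0.05. The filled points are the TSA contrasts of Uhrf1 and Mbd3 and, for Dnmt1, those other than TSA against untreated, and the intervals of Dnmt3a all include 0.

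The comparison of AzaC with untreated cells asked whether exposure to a methyltransferase inhibitor alone was accompanied by other RNA levels of these genes. Dnmt1, the protein AzaC traps, gave a log2 change of 0.05 (95% interval -0.64 to 0.74), with 1.24-fold more in experiment 1 and 1.16-fold less in experiment 2. Mbd3 gave 0.04 (95% interval -0.55 to 0.63). Uhrf1 gave 0.57 (-0.45 to 1.58) and was higher with AzaC in both experiments, by 1.20-fold and 1.83-fold, and without AzaC 2 the change was 0.10. Dnmt3a gave 1.16 (-0.40 to 2.72), and 0.030 without untreated 2. The intervals leave room for changes of up to about these bounds. By limma 0.0% of the 7987 probe sets passed for AzaC against untreated, with 175 at an unadjusted p under 0.05 and 328 with the experiment as a block, where 0 passed after adjustment. For AzaC/TSA against TSA and for AzaC averaged over TSA 0.0% also passed, with 185 and 203 at an unadjusted p under 0.05.

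Whether the TSA change differed with AzaC was tested as the interaction, the TSA change with AzaC minus that without it. It was -1.04 for Uhrf1 (95% interval -2.48 to 0.39, limma adjusted p = 0.9998), -0.62 for Dnmt1 (-1.59 to 0.35), -0.34 for Dnmt3a (-2.54 to 1.86) and 0.03 for Mbd3 (-0.81 to 0.86). None of the 4 passed. Over all probe sets 0.0% passed, with 142 at an unadjusted p under 0.05 by limma and 258 with the block.

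The 2 experiments differed little beside the TSA change for 3 of the genes. In the fit with the experiment as a term, experiment 2 was higher than experiment 1 by 0.70 for Uhrf1 (SE 0.21, unadjusted p = 0.00726, limma adjusted p = 0.0944) and by 0.33 for Dnmt1, and lower for Mbd3 (-0.22) and Dnmt3a (-0.70). None of the 4 passed, where 4.22% of all tested probe sets did. Uhrf1 was higher in experiment 2 in all 4 groups and Mbd3 was lower in all 4. The share of all tested probe sets that kept their sign in all 4 groups was not counted, so this order is a description only. For Dnmt3a the difference rested on the untreated arrays, with -2.26 there and -0.49 to 0.42 in the other groups.

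Across the 8 arrays the log2 signals of Uhrf1 and Dnmt1 had r = 0.95, those of Uhrf1 and Mbd3 r = 0.885 and those of Dnmt1 and Mbd3 r = 0.864, while Dnmt3a had r from -0.11 to 0.15 with the other 3. These are descriptions over 8 arrays that fall into 4 with and 4 without TSA, and each array adds the same library to both genes of a pair. By the same measure over 6006 other tested genes, Uhrf1 was nearest to Mcm4 (r = 0.997), Pola2 (0.994), Nudt16l1 (0.988), Alyref (0.988) and Kif22 (0.987), and farthest from 2610524H06Rik (-0.991) and Egr1 (-0.984). The rank order of the 8 arrays was the same for Uhrf1, Mcm4, Pola2 and Alyref, an order that other tested genes shared as well. Mcm4, a subunit of the replicative helicase, had signals of 343 and 494 untreated, 442.5 and 703 with AzaC, 68.1 and 103 with TSA and 44.0 and 92.8 with AzaC/TSA. It fell with TSA averaged over AzaC (-2.71, SE 0.32, limma adjusted p = 0.0012).

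For Dnmt1 the nearest genes were Snrnp40 (0.987), Mxd3 (0.985), Kif2c (0.983), Cdkn3 (0.982) and Hspa9 (0.981), and the farthest Mycn (-0.984) and Ptpn1 (-0.981). Mbd3 was nearest to Pole4 (0.994), Ppp1r14b (0.991), Maged1 (0.987), Afg3l1 (0.987) and H2ax (0.985), and farthest from Bmp2k (-0.996) and Grn (-0.995). The nearest genes of Dnmt3a were Ube2w (0.953), Pigr (0.921), Ralgds (0.914), Htr4 (0.908) and Dok1 (0.904), with Gemin5 and Nup54 at -0.93. Arrays under the floor entered the r of Mycn (3 of 8), Bmp2k (2), Cdkn3 (1) and Ube2w (1), so these values depend on it. With the mean of each experiment subtracted, 2 of 5 stayed among the nearest 5 for Uhrf1, 2 for Dnmt1, 1 for Dnmt3a and 0 for Mbd3. By rank correlation 1, 1, 2 and 0 stayed, and with quantile normalization 5, 4, 4 and 3, in the same order of genes.

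**Figure D4:**
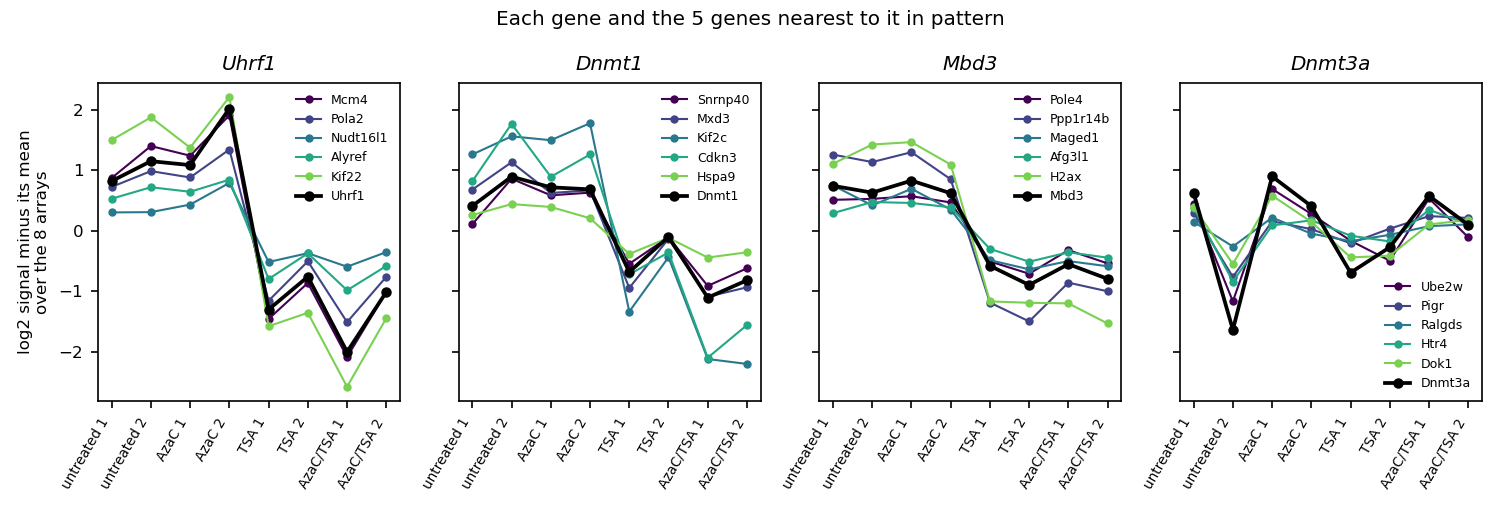
Log2 signal minus its mean over the 8 arrays (y axis) on each array (x axis) for each of the 4 genes (black) and the 5 genes with the highest r to it (colours). Uhrf1, Dnmt1 and Mbd3 and their nearest genes step down at the TSA arrays, while Dnmt3a and its nearest genes dip on untreated 2.

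Genes of the pathway were taken from lists that include the 4 genes described, each gene by its brightest probe set. Of the 15 methyltransferases and partners 11 were tested. In the TSA comparison averaged over AzaC 4 of the 11 fell and 0 rose (5 fell with the block), where 7.54% of all tested probe sets fell (12.2% with the block), with a median of -0.95 against -0.03 over all tested probe sets. Without Uhrf1, Dnmt1 and Dnmt3a, 2 of 8 fell (3 with the block), with a median of -0.75. Those 2 were Pcna, the replication clamp (-1.95, SE 0.33, limma adjusted p = 0.00652), and Ctcf, a DNA-binding protein sensitive to methylation (-0.95, SE 0.20, limma adjusted p = 0.0166). Pcna signals were 1849 and 3208 untreated, 1852 and 3135 with AzaC, 528 and 800.3 with TSA and 389 and 944 with AzaC/TSA. The arrays with TSA thus lay below those without it, which held for 12.6% of all tested probe sets. Hells, a remodeller needed for methylation of repeats, gave -1.51 (with AzaC/TSA 1 under the floor, limma adjusted p = 0.0529, and 0.00716 with the block), Cdca7 -0.96 and Ehmt2 -0.55, and Usp7, a deubiquitinase that binds Dnmt1 and Uhrf1, -0.22. Trdmt1, which methylates transfer RNA, gave -0.01. Dnmt3b, Dnmt3l, Uhrf2 and Ehmt1 were not analysed here.

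Among methyl-CpG readers 3 of 8 were tested. With TSA averaged over AzaC Mbd3 was the 1 that fell, where 7.54% of all tested probe sets fell. Without Mbd3, 0 of 2 fell, with a median of 0.31. Mbd2, the close relative that replaces Mbd3 in some NuRD complexes, gave 0.78 (SE 0.30, limma adjusted p = 0.12), with 69.0 and 106 untreated, 131 and 74.4 with AzaC, 162 and 260.2 with TSA and 113 and 132 with AzaC/TSA. Both TSA arrays were above both untreated ones, which held for 26.2% of all tested probe sets. Mbd1 gave -0.16. Mbd4 was under the filter signal on 7 of 8 arrays and was not tested.

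Of 14 NuRD genes 10 were tested, and 3 fell with TSA averaged over AzaC and 0 rose, where 7.54% of all tested probe sets fell and 6.95% rose, with a median of 0.02. Without Mbd3, 2 of 9 fell, with a median of 0.03. Cdk2ap1, a small subunit of the complex, fell by 1.76 on the log2 scale (SE 0.22, limma adjusted p = 0.00151), from 1503 to 2036 on the arrays without TSA to 304 to 674.5 on those with it. Rbbp4, a histone-binding subunit, fell by 0.71 (limma adjusted p = 0.0406). The deacetylases Hdac1 (0.44) and Hdac2 (-0.13), the remodeller Chd4 (0.33), Mta2 (0.03), Rbbp7 (0.35) and Gatad2a (0.0047) did not pass. Of the 10, Cdk2ap1 had a lower change than Mbd3 and the other 8 a higher one.

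Counts in the lists around the methylation reaction stand against 7.54% of all tested probe sets that fell and 6.95% that rose. With the block these shares were 12.2% and 11.7%. Of 14 methyl donor genes 5 were tested and 2 fell with TSA averaged over AzaC: Ahcy, which clears the S-adenosylhomocysteine that methyltransferases release (-2.82, SE 0.34, limma adjusted p = 0.0013), and Shmt1, of folate metabolism (-2.10, limma adjusted p = 0.0156). Their signals with and without TSA did not overlap, with the TSA-exposed arrays lower, which held for 12.6% of all tested probe sets. Of 6 tested genes that handle deoxycytidine analogues, Dck, the kinase that activates AzaC in the cell, fell by 1.23 (SE 0.26, limma adjusted p = 0.0152), with signals from 628 to 709 without TSA and 207 to 398 with it. Samhd1 (0.86, with untreated 1 under the floor) and Nme2 (-0.95) did not pass, and with the block Nme2 fell too (limma adjusted p = 0.00326). Of 9 tested genes of demethylation and base excision, Gadd45a, a stress-induced gene, rose by 0.72 (limma adjusted p = 0.0379). Parp1 (-0.83), Lig3 (-1.19, with AzaC/TSA 2 under the floor) and Xrcc1 (-0.75) did not pass, and 2 of them, Parp1 and Lig3, fell in the fit with the block (adjusted p = 0.0274 and 0.0476 by limma). Tet1 was under the filter signal on 7 of 8 arrays and was not tested.

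Genes of S phase and the replication fork, where Uhrf1 and Dnmt1 work, were lower with TSA in 34 of 34 tested members. Their median was -1.84, against -0.03 over all tested probe sets. Of the 34, 27 passed (29 with the block), where 7.54% of all tested probe sets fell (12.2% with the block). Pcna is in this list and also in that of the methyltransferases and partners. The largest falls were Mcm5 (-3.72), Tk1 (-3.25), Cdc6 (-3.23), Rrm2 (-3.18), Mcm3 (-3.17), Lig1 (-2.91), Cdc45 (-2.89), Rrm1 (-2.76), Mcm4 (-2.71) and Mcm7 (-2.12). The other calls were Mcm2, Rfc4, Pcna, Pola2, Topbp1, Prim1, Cdt1, Prim2, Pold1, Rpa2, Chaf1b, Slbp, Rfc3, Pola1, Fen1, Chaf1a and Rfc5, from -2.06 to -0.94. Ccne2 (-1.35), Rpa3 (-0.72), E2f1 (-0.46), Rpa1 (-0.44), Rfc2 (-0.44), Rfc1 (-0.43) and Ccne1 (-0.26) did not pass. For Cdc6, Cdc45 and Ccne2 some TSA-exposed arrays were under the floor, so the values depend on it. The change of Uhrf1 (-2.54) lay within this range and below the list median, and that of Dnmt1 (-1.35) lay above the median. The part of this shift in the falls of Uhrf1, Dnmt1 and Mbd3 was not tested. With AzaC alone 0 of the 34 passed, and their median was 0.15.

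Imprinted and germ line genes include genes that DNA methylation is known to silence. Of 16 tested imprinted genes 1 rose and 1 fell with TSA averaged over AzaC: Igf2, a growth factor (3.66, SE 0.37, limma adjusted p = 0.000586), and Mest (-1.09, limma adjusted p = 0.026). That is close to the share over all tested probe sets, of which 6.95% rose and 7.54% fell. With the block 3 rose and 2 fell, where 11.7% and 12.2% of all probe sets did. With AzaC averaged over TSA 0 passed, and Igf2 gave -0.94. Of 17 germ line genes 9 were named on the array and 0 passed the filter, so none was tested. The highest signal among those 9 was 57.1.

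**Figure D5:**
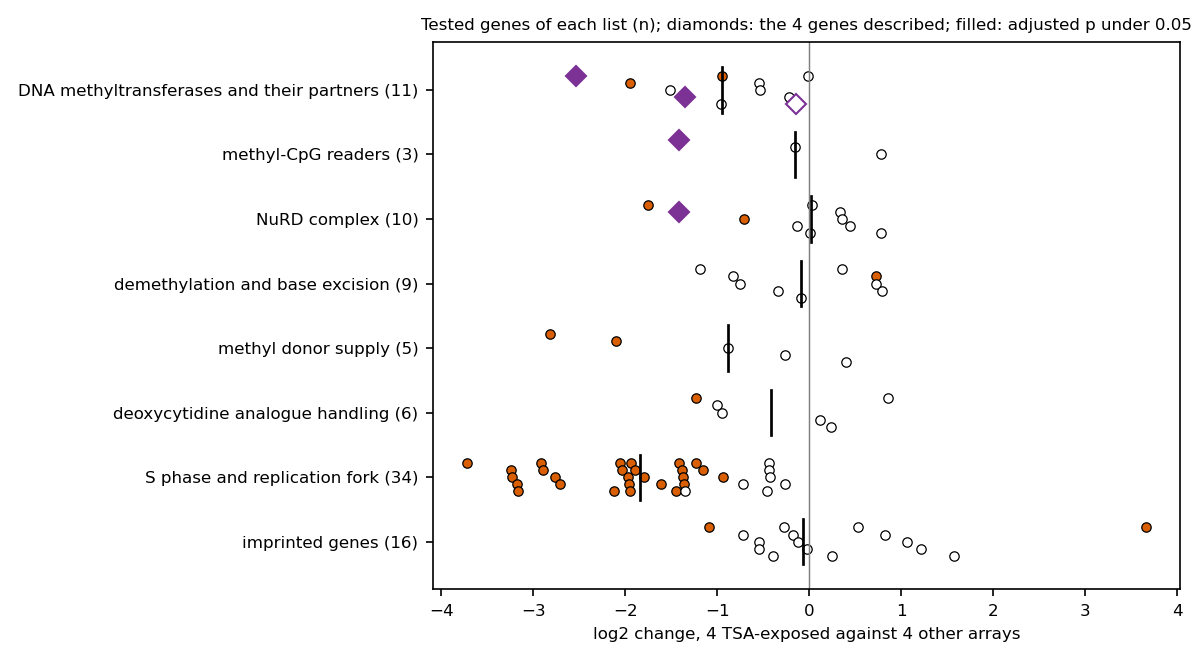
Log2 change of the 4 TSA-exposed against the 4 other arrays (x axis) for the tested genes of each list (y axis, number tested in brackets), with diamonds for the 4 genes described, filled symbols at an adjusted p under 0.05 and a bar at the list median. Uhrf1, Dnmt1 and Mbd3 are filled diamonds from -2.54 to -1.35, Dnmt3a is open at -0.15, and the S phase list lies wholly below 0.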

How the data were processed

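Signals of 8 short-oligonucleotide arrays (4 groups of 2) were analysed. The authors deposited 1 linear intensity for each probe set on each array. All 8 arrays share a mean of 200.1 after trimming 2% at both ends, from which it was read that they had been scaled to it. Which software made them is not stated in the labels. Of 12488 probe sets, 66 controls were left out. Values under 10% of the trimmed mean (20.01) were raised to it and log2-transformed, and 7987 probe sets with at least 2 of 8 arrays at 25% of it (50.03) were tested with limma 3.58.1 in R 4.3.3 (eBayes after lmFit, variances moderated along the mean signal, with 4 residual and 4.93 prior degrees of freedom), with 1 mean per group. Tests were two-sided, with Benjamini-Hochberg adjustment over 7987 probe sets and a threshold of 0.05. Values that rest on arrays under the floor depend on that floor. Genes with such arrays are named among the 4 genes, the list genes given with a change, the marker calls and the nearest patterns.

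The array annotation gave 10833 probe sets 1 gene symbol, 396 several and 1193 none, and 10817 were matched by gene identifier to RefSeq (GRCm38.p6) for current symbols. All 4 genes were matched. For genes with several probe sets the one with the highest mean was used. The titles number the experiments 1 and 2, and deviations of same-numbered arrays from their group means correlated with r from 0.203 to 0.411 over 6 pairs of groups, so the experiment as a block was an alternative fit (3 residual degrees of freedom, prior 6.71). The script was tested on simulated data.

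The genes, the 9 lists (154 genes), the comparisons and the rule for named genes (all probe sets of the 4 genes, the 5 nearest and 2 farthest genes in pattern, and called list members with up to 3 more by p) were chosen with earlier results of these data known.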

Additional observations from a re-analysis of the deposited data

Results flagged for a closer look

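For Uhrf1 the difference between AzaC and no AzaC had opposite signs in cells without and with TSA, and neither difference passed the test (limma adjusted p = 1.0 for both). Against untreated cells AzaC arrays were higher in both experiments (log2 0.26 and 0.87), and against TSA alone AzaC/TSA arrays were lower in both (-0.70 and -0.25). The difference itself, the interaction, was -1.04 (95% interval -2.48 to 0.39) with an unadjusted p = 0.134 and an adjusted p = 0.9998 by limma, and with the experiment as a block an unadjusted p = 0.0308 and an adjusted p = 0.9997. It did not pass, and leaving out 1 array at a time it ran from -1.54 to -0.55. Without AzaC 2 the change of AzaC against untreated was 0.10 (0.57 with all arrays), and without AzaC/TSA 1 that of AzaC/TSA against TSA was 0.019 (-0.48 with all arrays).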

How the results depend on the processing

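Counts of probe sets called moved most. With no filter they were 13 for AzaC against untreated, 135 for TSA (401 as reported), 63 for AzaC/TSA (249), 113 for AzaC/TSA against AzaC (223), 11 for AzaC/TSA against TSA, 672 for TSA averaged over AzaC (1157), 17 for AzaC averaged over TSA and 11 for the interaction. With only the groups compared they were 171, 49 and 45 for TSA, AzaC/TSA and AzaC/TSA against AzaC, and without the intensity trend 216, 152 and 135, with 1 for the interaction and 74 for experiment 2 against 1 (337). With the experiment as a replicate block they were 971, 746, 744 and, for TSA averaged over AzaC, 1908. That block added the call of Dnmt1 with TSA (-1.04, limma adjusted p = 0.022) and changed no other call of the 4 genes. Among the list calls with TSA averaged over AzaC, those of Gadd45a, Mest and Dck were each lost under some alternatives.

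Of 11 calls for the 4 genes, the 3 averaged over AzaC held in all 17 alternatives, with limma adjusted p up to 0.0298. The others kept their direction and size but lost the call under some settings. With no filter these were Dnmt1 with AzaC/TSA (-1.61, adjusted p = 0.0999) and against AzaC (-1.66, 0.0877), Uhrf1 with TSA (-2.02, 0.157), with AzaC/TSA (-2.49, 0.136) and against AzaC (-3.06, 0.0877), and Mbd3 with AzaC/TSA (-1.36, 0.0537). With only the groups compared they were Dnmt1 (-1.61 and -1.66), Uhrf1 (-2.49 and -3.06) and Mbd3 (-1.42, -1.36 and -1.40), and without the trend Dnmt1 (-1.61 and -1.66), Uhrf1 with TSA (-2.02) and Mbd3 (-1.42, -1.36 and -1.40), with adjusted p from 0.05001 to 0.1157.

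Signs turned only where no call stood, and the cause was not tested. With median centring AzaC against untreated was -0.11 for Dnmt1 and -0.12 for Mbd3, and AzaC averaged over TSA -0.021 for Uhrf1 and -0.015 for Mbd3. With quantile normalization the interaction of Mbd3 was -0.022. For Dnmt3a, TSA was -0.45 and the interaction 0.13 with the floor at 20%, and TSA averaged over AzaC was 0.10 with the floor at 5%.

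Leaving out 1 array at a time gave 56 to 367 calls for TSA, 14 to 223 for AzaC/TSA, 48 to 158 for AzaC/TSA against AzaC, 575 to 804 for TSA averaged over AzaC and 0 to 2 for AzaC averaged over TSA. The lone array of a group was then assumed to vary like the other groups. Dnmt1 ran from -0.19 to 0.29 for AzaC, -1.33 to -0.75 for TSA, -1.86 to -1.37 for AzaC/TSA and -1.81 to -1.52 against AzaC. Uhrf1 ran from 0.10 to 1.03 for AzaC, -2.29 to -1.75 for TSA, -2.99 to -1.998 for AzaC/TSA, -3.56 to -2.57 against AzaC, -0.97 to 0.019 for AzaC/TSA against TSA and -0.20 to 0.29 for AzaC averaged over TSA. Mbd3 ran from -0.066 to 0.14 for AzaC, -1.58 to -1.27 for TSA, -1.48 to -1.24 for AzaC/TSA, -1.52 to -1.28 against AzaC, -0.094 to 0.22 for AzaC/TSA against TSA, -0.028 to 0.13 for AzaC averaged over TSA and -0.13 to 0.19 for the interaction. Dnmt3a ran from 0.030 to 2.29 for AzaC, -1.11 to 1.15 for TSA, -0.29 to 1.97 for AzaC/TSA, -0.71 to 0.42 for TSA averaged over AzaC and -1.47 to 0.79 for the interaction. The untreated 2 value under the floor limits what can be read for Dnmt3a, and dim signals limit the second probe sets.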
